A study of Mus musculus with 6 samples.

Results

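The protocadherin beta genes examined here are Pcdhb1, Pcdhb2, Pcdhb3, Pcdhb5, Pcdhb6, Pcdhb7, Pcdhb10, Pcdhb11, Pcdhb12 and Pcdhb16, which are 10 of the 18778 genes named in the study's gene tables. They were picked from those tables because earlier results of the same data showed a run of H3K4me3 gains among them, so their H3K4me3 values are given as a description, without a test. The tables name 2 further genes of the cluster, Pcdhb9 and Pcdhb21, and the RefSeq gene table lists 22 Pcdhb genes in all. The others were not scored here. Entry to the tables was uneven, since that of neuronal H3K4me3 holds peaks at a false discovery rate (FDR) under 0.001 and the others peaks under 1e-20. A gene with only a weak neuronal H3K4me3 peak could enter, and one with only a weak NSC peak could not. Pcdhb3, Pcdhb10, Pcdhb12, Pcdhb16, Pcdhb9 and Pcdhb21 entered by the neuronal H3K4me3 table alone. Counts of gains and losses below depend on this.

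Both cell populations compared were of the C57BL/6 mouse strain. Neural stem cells (NSCs), made from embryonic stem cells, were kept at passages 25 to 30 in FGF2 and EGF, and are labelled differentiation day 0 and RedStar negative. The neurons were made from these NSCs, are labelled day 11, and were purified on a cell sorter by RedStar fluorescence, a reporter driven by the promoter of Tau, so the sort keeps the cells in which that promoter was on. Chromatin immunoprecipitation sequencing was done once per cell type for H3K4me3 and once for H3K27me3, with 1 input library per cell type. With 1 library per cell type and mark, differences between the cell types come without replicates and without a p-value. A mark present at a low level in all cells cannot be told apart from a mark present in a few cells.

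Clustered protocadherins are cell-surface proteins of the cadherin superfamily, encoded in tandem alpha, beta and gamma clusters. Each beta gene has its own promoter and encodes its whole protein in an unsplit exon, with extracellular cadherin repeats, a membrane span and a short cytoplasmic tail. Individual neurons switch on differing subsets of these promoters, largely at random, and the resulting combinations at the cell surface are used by neurites to tell self from non-self. H3K4me3 is found at promoters that are active or poised, and H3K27me3 is deposited by the Polycomb repressive complex PRC2 at silenced genes.

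The members lie on chromosome 18 of the mm9 build, from 37424592 (the start of Pcdhb1) to 37642185 (the end of Pcdhb16), a span of 217.594 kb. All 10 are on the plus strand, are 2319 to 4668 bp long, and have start sites 5.959 to 69.972 kb apart. A gene was counted as marked when a peak of the deposited list lay within 1000 bp of its start site. Fold means immunoprecipitated over input reads in a peak, scaled by the authors, and brackets after a fold give the exact 95% interval, which covers counting error only. Folds and false discovery rates (FDR) of peaks are the authors' own.

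By this rule 5 of the 10 members gained H3K4me3 in neurons, 3 had it in both cell types and 2 lost it. The gains were Pcdhb2, Pcdhb3, Pcdhb5, Pcdhb6 and Pcdhb7, which follow one another in the tables. Pcdhb10, Pcdhb11 and Pcdhb16 had the mark in both, and Pcdhb1 and Pcdhb12 had it in NSCs alone. Marked members thus numbered 5 in NSCs, beside 70.4% of all genes, and 8 in neurons, beside 61.7%. Over all 18778 genes 0.831% gained H3K4me3, 9.55% lost it and 60.8% had it in both. Since the members were picked for gains, nothing is read from the contrast with 0.831%. The label of a run of gains thus held for the 5 genes from Pcdhb2 to Pcdhb7 and not for the members as a whole.

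**Figure D1:**
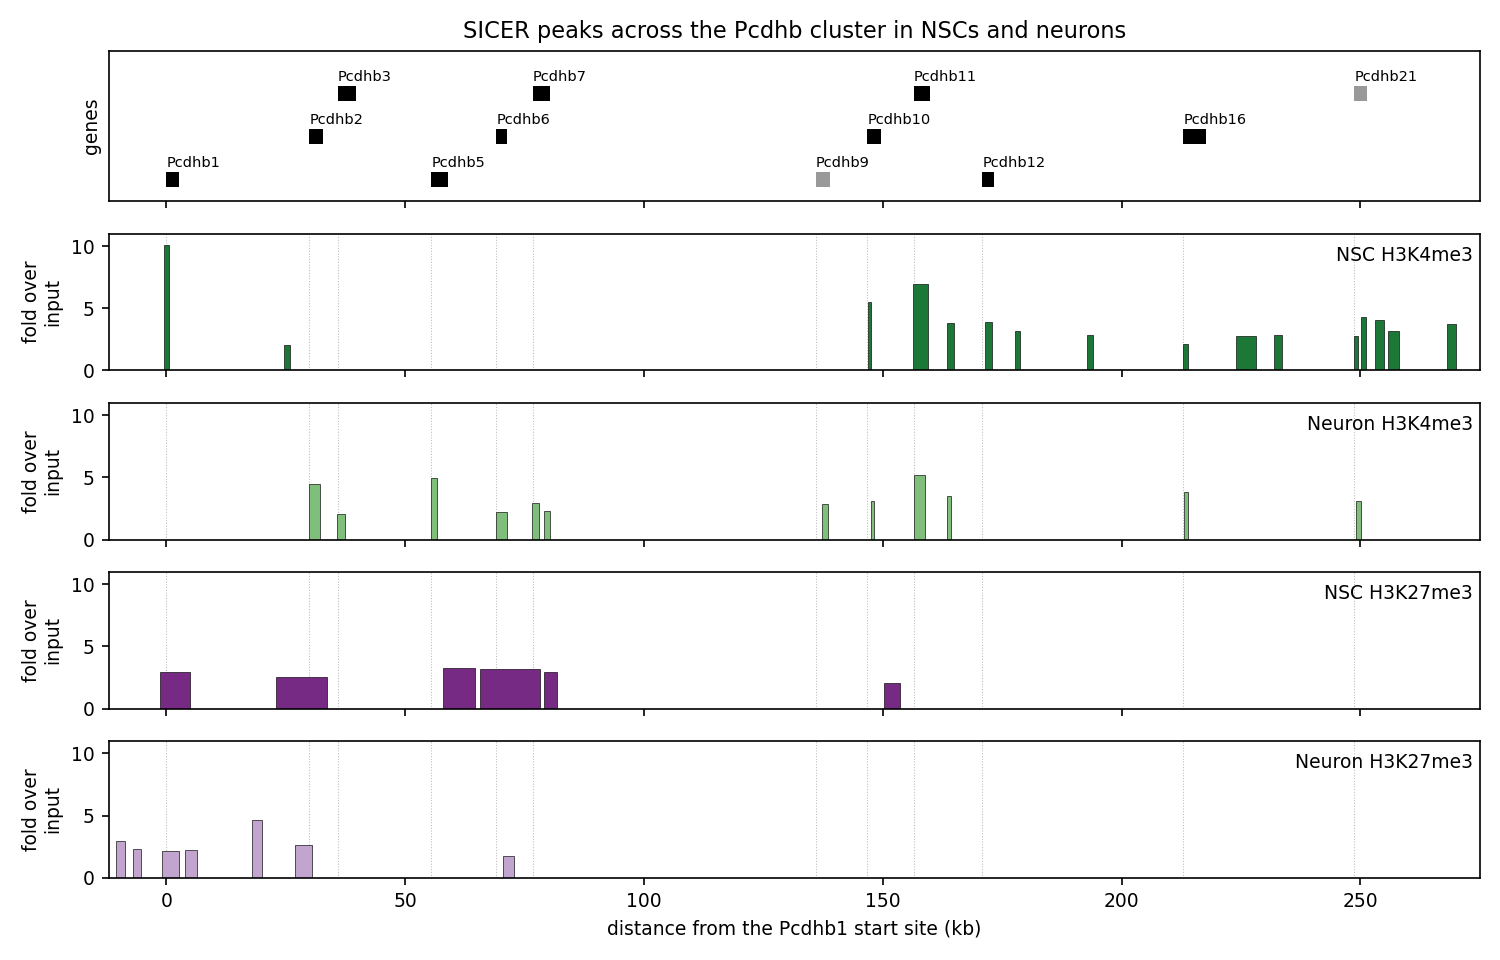
Peaks across the Pcdhb cluster against distance from the Pcdhb1 start site in kb, with genes on top (black, members; grey, Pcdhb9 and Pcdhb21) and 1 row per library, in which the width of a bar is the width of a peak and its height the fold over input. The neuronal H3K4me3 peaks from Pcdhb2 to Pcdhb7 stand where NSCs have H3K27me3 domains or lie close to them, and the NSC H3K4me3 peaks gather beyond Pcdhb9.

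At the start site of Pcdhb2, the first gene of the run, neurons had an H3K4me3 peak of 2400 bp with 68 immunoprecipitated and 15 input reads, a fold of 4.50 (2.55 to 8.48) and an FDR of 1.5e-23. The nearest NSC H3K4me3 peak was 4095 bp away, upstream, with 32 over 16 reads. Pcdhb2 thus gained the mark at its start while NSCs had a weak peak in the same stretch.

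Pcdhb3 had the weakest of the gained peaks, with 39 over 19 reads and a fold of 2.04 (1.15 to 3.74), and the closest peak of the NSC list was 10054 bp off. Pcdhb5 had the highest fold of the run, 4.97 (2.40 to 11.56), with 45 over 9 reads in 1200 bp. The nearest NSC peak to Pcdhb5 was 29636 bp away.

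At Pcdhb6 the neuronal peak was 2200 bp wide with 47 over 21 reads, a fold of 2.22 (1.30 to 3.92). Pcdhb7 had 38 over 13 reads at its start, a fold of 2.90 (1.51 to 5.94), and a second neuronal peak of 28 over 12 reads lay 2244 bp into the gene. No NSC H3K4me3 peak was listed within 43283 bp of Pcdhb6 or within 50957 bp of Pcdhb7. The intervals of the 5 folds overlapped one another, and differences among the 5 genes were not tested.

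These were small peaks. The immunoprecipitated reads of the 5 gains ranged from 38 to 68 with a median of 45, and all 156 gained genes had a median of 33. The median over all start sites marked in neurons was 73 reads. Read counts in NSCs at these 5 start sites are not known here, because the peak lists give reads for called peaks alone. The NSC H3K4me3 list holds 20312 peaks of 1000 to 2400 bp. The fewest reads among them are 22 and the lowest fold is 1.15, which need not belong to the same peak. Read numbers of the cell types are not on the same scale. Over the 11424 genes with H3K4me3 in both, neuronal reads per kb had a median of 0.42 of those of NSCs. Whether a mark of this strength would have been called in NSCs at these 5 start sites was not tested.

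Pcdhb11 carried the H3K4me3 peak with the most reads of any member. NSCs had 176 over 26 reads across 3000 bp, a fold of 6.93 (4.58 to 10.91), and neurons 63 over 12 reads across 2200 bp, a fold of 5.22 (2.79 to 10.63). Both peaks began close to the start site and overlapped. Per kb, the neuronal reads of Pcdhb11 were 0.49 of those of NSCs (0.36 to 0.65). The same ratio had a median of 0.42 over the 11424 genes with H3K4me3 in both cell types, and 397 peaks with equal bounds had 0.399 times the reads in neurons. The ratio of Pcdhb11 stood at the 71.9th percentile of these genes, and its interval held the median.

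Pcdhb16 had 40 over 19 reads in NSCs, a fold of 2.16 (1.22 to 3.94), and 27 over 7 in neurons, a fold of 3.83 (1.63 to 10.42). Its neuronal reads per kb were 0.81 of those of NSCs (0.48 to 1.35), an interval that lies above the median of 0.42. No input was subtracted in these ratios. The Pcdhb16 peak in NSCs had 33.3 immunoprecipitated and 15.8 input reads per kb. Input reads in the 397 peaks with equal bounds had a ratio of 0.775. Whether Pcdhb16 had relatively more H3K4me3 in neurons cannot be told from its ratio. Pcdhb10 had 27 over 5 reads in NSCs and 22 over 7 in neurons, but these were different peaks that did not overlap, so no ratio is given. The NSC peak ran from 72 to 871 bp after the start site and the neuronal one from 872 to 1471 bp.

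Pcdhb1 went the other way. In NSCs its start site had 59 over 6 reads in 1200 bp, a fold of 10.07 (4.36 to 28.55), the highest of any member in any library. In neurons the closest H3K4me3 peak, that of Pcdhb2, began 29808 bp downstream. Pcdhb1 is known to lack the conserved promoter element that most clustered protocadherin promoters carry. Pcdhb12 had 46 over 12 reads in NSCs, a fold of 3.93 (2.05 to 8.14), in a peak that began 561 bp after its start site, and its nearest neuronal peak was 6640 bp upstream.

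**Figure D2:**
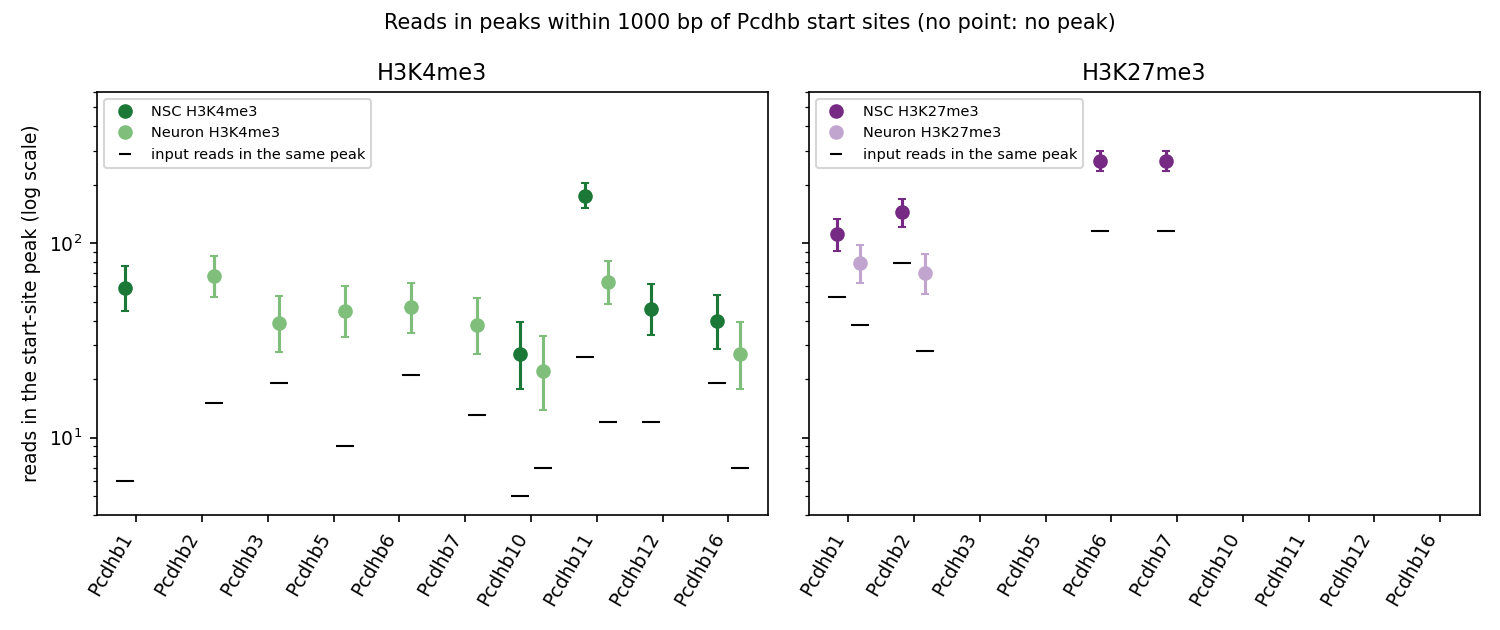
Immunoprecipitated reads (points, log scale, with exact 95% Poisson intervals) and input reads (black dashes) in the peak within 1000 bp of each member's start site, for H3K4me3 on the left and H3K27me3 on the right. On the left, Pcdhb2, Pcdhb3, Pcdhb5, Pcdhb6 and Pcdhb7 have a point in neurons and none in NSCs, between 38 and 68 reads. Pcdhb11 in NSCs stands highest on that side with 176.

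The members just inside the limit of 1000 bp were Pcdhb12 in NSCs at 561 bp and Pcdhb10 in neurons at 872 bp, both for H3K4me3. Just outside were Pcdhb6 for neuronal H3K27me3 at 1318 bp and Pcdhb3 for NSC H3K27me3 at 2254 bp. Of the other Pcdhb genes in the tables, Pcdhb9 had a neuronal H3K4me3 peak of 26 over 9 reads at 1291 bp and its nearest NSC peak at 10891 bp. It was not marked by the rule in either cell type. Pcdhb21 was marked in both, with 38 over 14 reads in NSCs and 31 over 10 in neurons.

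The deposited gene tables give another count. They pair each gene with a listed peak, and by the paired peak within 1000 bp 6 members gained H3K4me3, against 3.77% of all genes. Pcdhb10 and Pcdhb16 were gains there, although the NSC list has a peak at 72 bp from the start of Pcdhb10 and on that of Pcdhb16. The NSC table holds peaks at FDR under 1e-20 and the neuronal table peaks at FDR under 0.001, and neither of these 2 NSC peaks reaches 1e-20. Pcdhb7 was not a gain by the tables, which pair it with its second neuronal peak. Pcdhb2, Pcdhb3, Pcdhb5 and Pcdhb6 were gains by both rules. With an FDR under 1e-20 asked of both lists, Pcdhb2 was the remaining gain, Pcdhb1 the remaining loss and Pcdhb11 the gene marked in both, while 0.186% of all genes gained the mark, 26.6% lost it and 39.8% had it in both.

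The H3K4me3 peaks lay mostly downstream of the start sites. At all 8 members marked in neurons, the peak reached no more than 156 bp upstream of the annotated start site, and at Pcdhb10, Pcdhb11 and Pcdhb16 it began after it. Downstream it ended 1081 to 2327 bp into the gene. A reach of at most 200 bp upstream was found at 27.6% of the 11580 genes marked in neurons, whose median reach was 522 bp. In NSCs 4 of 5 marked members had it, against 9.28% of marked genes, and the exception was Pcdhb1, whose peak was nearly centred on its start, from 592 bp before it to 607 bp after. The limit of 200 bp was chosen after the values were seen. A short reach was not particular to the members. It was 106 bp at Pcdhb21 and 85 bp at Pcdha6 in NSCs, and 139 bp at Pcdha11 and 7 bp at Pcdhga2 in neurons, whereas at Pcdhga9 it was 1389 bp in NSCs and 789 bp in neurons. Pcdha11, Pcdha6, Pcdhga2 and Pcdhga9 are long entries of 257373, 220027, 172918 and 167539 bp. The start scored is that of the entry, and whether it is the promoter of the gene so named was not checked.

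**Figure D3:**
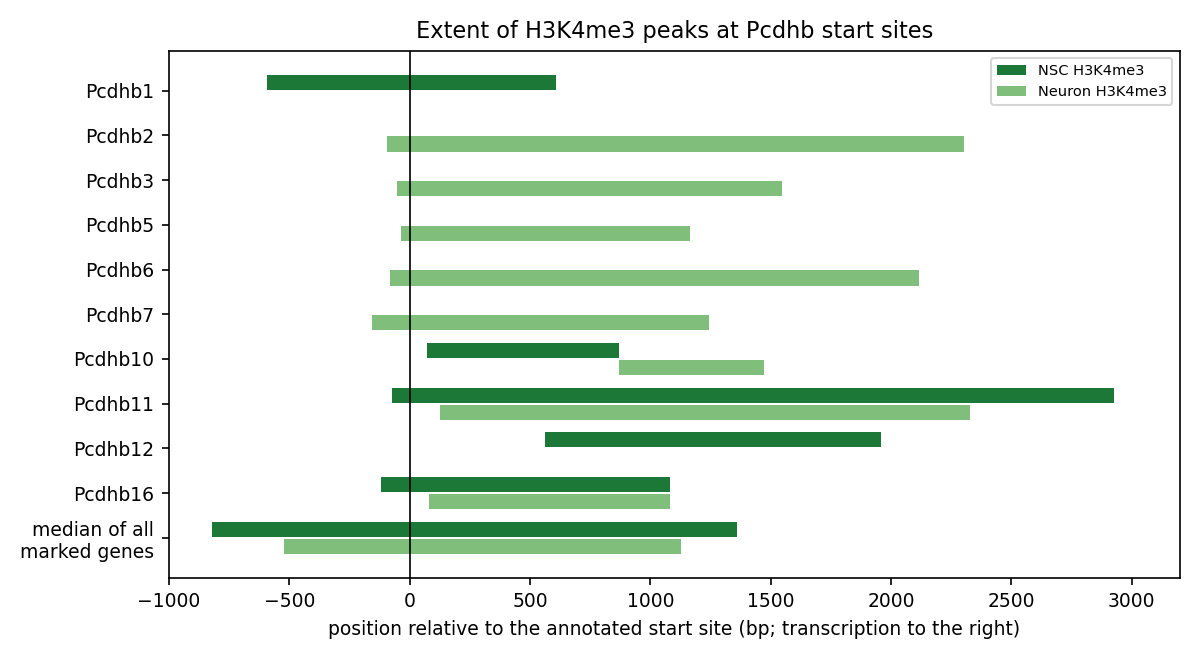
Extent of the H3K4me3 peak at each marked member relative to its annotated start site in bp, with transcription to the right, for NSCs (dark) and neurons (light), and below them the median reach of all marked genes in each direction. Peaks of the members run into the gene, and that of Pcdhb1 extends 592 bp before the start.

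H3K27me3 was not a criterion of the choice, but it went with the H3K4me3 gains that were. Of all 156 genes that gained H3K4me3, 46.8% had H3K27me3 in NSCs, against 8.1% of those with H3K4me3 in both cell types. Among the members it was 3 of the 5 gains and 0 of the 3 with H3K4me3 in both. In NSCs 4 of 10 members were marked, Pcdhb1, Pcdhb2, Pcdhb6 and Pcdhb7, beside 19.2% of all genes. In neurons Pcdhb1 and Pcdhb2 were, against 17.9%. Pcdhb6 and Pcdhb7 thus lost the mark (4.85% of all genes did), Pcdhb1 and Pcdhb2 had it in both (14.3%) and no member gained it (3.56%). By the gene tables, and with an FDR under 1e-20 asked of both lists, all 4 had lost it, against 4.43% and 5.38% of genes, since the neuronal peaks at Pcdhb1 and Pcdhb2 do not reach that limit. The genes are not separate draws, since Pcdhb6 and Pcdhb7 lie in the same NSC domain. From Pcdhb10 onwards no member was marked with H3K27me3 in either cell type.

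The domain over Pcdhb6 and Pcdhb7 was the widest of the cluster in NSCs, 12600 bp with 265 over 115 reads, a fold of 3.22 (2.58 to 4.04). In neurons the place held a peak of 2400 bp with 43 over 26 reads, a fold of 1.74 (1.04 to 2.94), 1318 bp from the start of Pcdhb6 and 3957 bp from that of Pcdhb7. The loss at Pcdhb6 and Pcdhb7 thus rests on the limit of 1000 bp. With a limit of 5000 bp both counted as having H3K27me3 in both cell types. The neuronal H3K4me3 peaks of Pcdhb6 and Pcdhb7 both lay wholly inside the NSC domain. Of the 156 genes that gained H3K4me3, 11 also lost H3K27me3, Pcdhb6 and Pcdhb7 included. The others with a symbol were Tnfrsf11a, Gm9817, Camk2a, Stmn3, Kcne3 and Scg3, and 3 had no symbol.

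Pcdhb2 gained H3K4me3 inside a domain that persisted in part. NSCs had 10600 bp of H3K27me3 there with 144 over 79 reads, a fold of 2.55 (1.92 to 3.40). Neurons had 3400 bp with 70 over 28 reads, a fold of 2.63 (1.67 to 4.23). The neuronal domain ended 505 bp after the start of Pcdhb2, and the neuronal H3K4me3 peak ran from 94 bp before the start to 2305 bp after it. Whether both marks sat on the same chromatin or in different cells cannot be told apart.

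Pcdhb1, which lost H3K4me3, kept H3K27me3 at its start site. NSCs had 111 over 53 reads in 6400 bp, a fold of 2.93 (2.09 to 4.14), and neurons 79 over 38 in 3600 bp, a fold of 2.18 (1.46 to 3.30). Pcdhb3 and Pcdhb5 had no H3K27me3 within the limit in either cell type. NSC domains lay 2254 bp before Pcdhb3 and 2365 bp after Pcdhb5, the latter 6800 bp wide with 132 over 56 reads. The nearest neuronal ones were 5454 and 14965 bp away.

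Seen along the span, the cluster fell into a front from Pcdhb1 to Pcdhb7, a middle with almost no peaks, and a back from Pcdhb9 to Pcdhb16, a split made after the values were seen. In the front, 80.265 kb long, H3K27me3 covered 45.2% in NSCs and 16.5% in neurons, while H3K4me3 covered 2.25% in NSCs and 12.5% in neurons. In the back, 81.677 kb long, H3K27me3 covered 4.16% in NSCs and nothing in neurons. There H3K4me3 covered 12.5% in NSCs and 7.35% in neurons. The rise of H3K4me3 in the front is the run of gains for which the members were picked. The neuronal cover of the back was smaller than that of NSCs, as it was over the genome.

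Of the 6 neuronal H3K4me3 peaks in the front none overlapped an NSC H3K4me3 peak, and 4 lay wholly inside NSC H3K27me3 domains. Of the 5 in the back 3 overlapped an NSC H3K4me3 peak and none touched an NSC H3K27me3 domain. Over the genome 23.9% of the 3148 neuronal H3K4me3 peaks with no NSC counterpart lay inside such a domain, and 6.13% of the 11698 with a counterpart did. The lack of NSC H3K4me3 overlap in the front is the feature for which the members were picked. The 4 peaks inside domains are not separate draws, since those at the starts of Pcdhb6 and Pcdhb7 share an NSC domain.

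**Figure D4:**
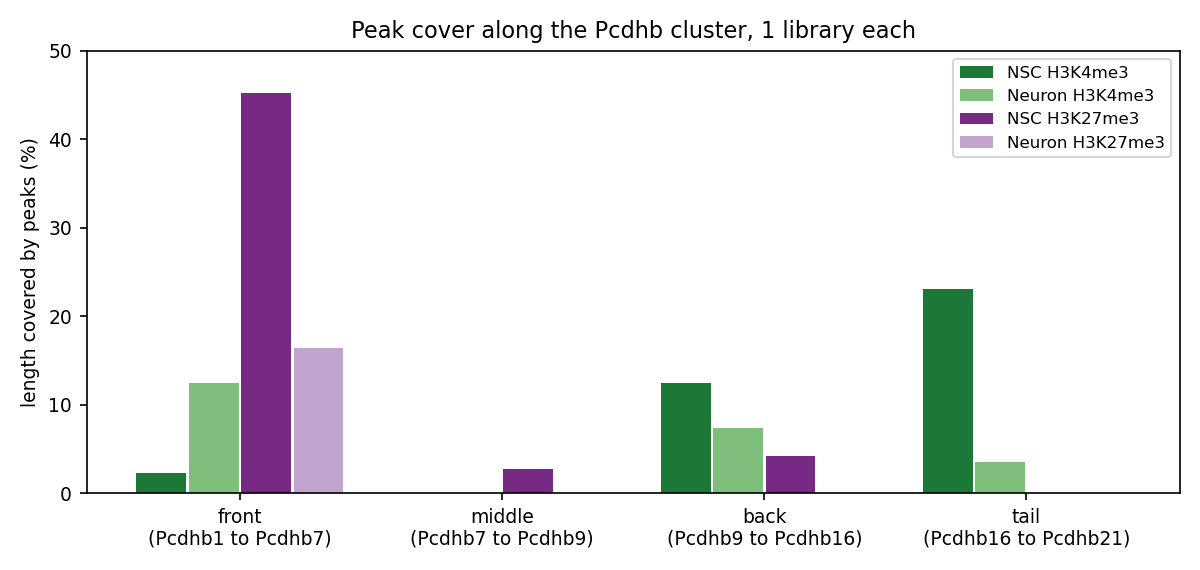
Share of length covered by peaks in 4 stretches of the cluster, in percent, with 1 bar per library and no replicates. In the front, NSC H3K27me3 covers 45.2% and neuronal H3K4me3 12.5%. In the tail NSC H3K4me3 covers 23.1%, by peaks of which none reaches an FDR under 1e-20.

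Over the whole span of the members, NSCs had 9 H3K4me3 peaks over 12.008 kb with 38.8 reads per kb, and neurons 11 over 16.000 kb with 26.5 reads per kb. For H3K27me3 NSCs had 6 peaks over 41.208 kb and neurons 5 over 13.208 kb, at 17.6 and 20.4 reads per kb. Over the genome, covered length of H3K4me3 was 57.3 Mb in NSCs and 24.7 Mb in neurons, and that of H3K27me3 173 and 146 Mb. The H3K4me3 cover of the span was 5.52% in NSCs and 7.35% in neurons, an order that turned with the bounds of the span. It was 6.81% and 6.73% with 10 kb added on each side, and 7.88% and 6.84% with the span taken to the end of Pcdhb21.

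Beta protocadherins resemble one another in sequence, so reads may be shared between members, and how reads with several matches were handled is not given in the sources used here. Input reads, which do not measure such sharing, give the background at the same places. In the 8 neuronal H3K4me3 peaks of the members they ranged from 5.45 to 11.9 per kb, beside a median of 9.17 over all peaks of that list. In the 5 NSC peaks they ranged from 5.00 to 15.8, beside 10.0, and Pcdhb16 was the highest. The part of shared reads in the values was not tested.

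No other place in the gene tables had a run of this length. Taking genes in order of their start sites, every other run of neighbouring H3K4me3 gains held 2 genes, against 5 with 5 separate peaks from Pcdhb2 to Pcdhb7. Neighbouring here means next in the tables, which skip genes without an entry and admit weak peaks for neuronal H3K4me3 alone. The length of the run depends on that set of genes. In windows of 250 kb, the next highest number was 3, at 2 places on chromosome 1. Chromosome 18 had 9 gains among 504 genes, 5 of them these members. This is the feature for which the members were picked and is no independent result.

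Among members of all kinds, the most common state was H3K4me3 in both cell types without H3K27me3, that of Pcdhb10, Pcdhb11 and Pcdhb16, which 54.9% of all genes shared. The genes of that state closest to the 3 by neuronal fold were Xpo6, Grasp, Tpd52l2, 4930432K21Rik and Ndufa6, each at 3.83, equal to their median of 3.83. With so common a state, such likeness sets nothing apart.

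None of the 2 alpha, 2 gamma and 10 unclustered protocadherins scored gained H3K4me3. Since 0.831% of all genes gained it, nothing is read from this in so few genes. All 10 scored unclustered genes, among them Pcdh7, Pcdh8 and Pcdh17, had H3K4me3 in both cell types (60.8% of all genes). In NSCs 5 of them had H3K27me3 (19.2%). Pcdh1, Pcdh15 and Pcdh17 lost H3K27me3 (4.85% of all genes), while Pcdh7 and Pcdh8 kept it (14.3%). Pcdh15 had 143 over 18 H3K4me3 reads in NSCs and 79 over 12 in neurons, and an NSC H3K27me3 domain of 11000 bp. Its nearest neuronal domain was 1891 bp away. Of the alpha cluster, Pcdha11 had H3K4me3 in both cell types, with 79 and 65 reads, and Pcdha6 lost it, with 42 reads in NSCs and no neuronal peak nearer than 3886 bp. Of the gamma cluster, Pcdhga2 and Pcdhga9 had it in both. No H3K27me3 was called at the start sites of these alpha and gamma genes. Those sites are the starts of long entries, which may not be the promoters of the genes so named.

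Scored next were 17 genes whose products have been linked to clustered protocadherin promoters, their looping or their silencing. They include Ctcf, the cohesin gene Rad21 and the chromatin gene Smchd1. H3K4me3 was in both cell types at 15 of the 17, beside 60.8% of all genes. Stag1, of a cohesin subunit, had it within 1000 bp of its start in neither. Its paired H3K4me3 peaks lay 43983 bp from that start in NSCs and 45983 bp in neurons. Whether the start scored for Stag1 is its promoter was not checked. Nsd1, of a histone methyltransferase, was counted as lost (9.55% of all genes), although a neuronal peak of 68 over 10 reads lay 2057 bp from its start. Dnmt3b, of a DNA methyltransferase, lost an NSC H3K27me3 peak of 81 over 56 reads, 787 bp from its start (4.85% of all genes lost H3K27me3). Its H3K4me3 was present in both, with 238 reads in NSCs and 59 in neurons.

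Labels were checked on marker genes. Nes, Sox2, Olig2 and Hes5, genes of neural progenitors, had H3K4me3 in both cell types. Of 4 scored neuronal genes 2 had it in NSCs, Tubb3 and Mapt, and all 4 in neurons, with Dcx and Stmn3 gained. S100b, of astrocytes, had it in NSCs alone, and Gfap in neither, as did the oligodendrocyte gene Mbp. H3K4me3 does not measure expression, so this check says nothing of the purity of the sort. Reads inside peaks numbered 983266 to 3623654 per library, the lowest in neuronal H3K4me3.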

How the data were processed

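Reads had been handled with Bowtie, SICER, SAMtools and FastQC on the mm9 build, per the submitters' processing notes, which give no versions here. Per library the authors deposited a peak list with counts of immunoprecipitated and input reads, p-values with false discovery rates, and a fold, the ratio of these reads times a constant per library. They also deposited a table pairing Ensembl genes with peaks of that list. The sources used here do not give the SICER settings or how duplicates were treated, and input reads are known inside peaks alone.

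From these files, start sites (gene start on the plus strand, gene end on the minus strand) were joined to all listed peaks. Gained means marked in neurons and not in NSCs, and lost the reverse. Overlap means at least 1 bp. The distance and cover steps were tested on simulated data. Read ratios carry exact binomial (Clopper-Pearson) intervals and read numbers exact Poisson ones, at 95%. Peak positions are printed as deposited. Versions were scipy 1.17.1, matplotlib 3.10.9, numpy 2.4.6, pandas 2.3.3 and Python 3.11.15.

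Members, gene lists and rules were chosen with earlier results of these data known. All members were named. From the other lists the rule was to name genes whose marks changed, at most 10 per list, and for likeness the 5 genes closest in neuronal fold. Other genes named serve as examples. The RefSeq table, of the GRCm38.p6 assembly, was used for symbols and gene order alone. Limits of distance, FDR, number of peaks, span and overlap were varied, as was the use of the gene tables.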

Additional observations from a re-analysis of the deposited data

How the results depend on the processing

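No paired analysis was possible because each group had 1 library. Of the settings tried on the members, widening the span by 10 kb on each side, or extending it to the end of Pcdhb21 (chosen after the data were seen), moved no cover by more than 1.5 times but turned the order of H3K4me3 cover between the cell types, from 5.52% in NSCs and 7.35% in neurons to 6.81% and 6.73%, and to 7.88% and 6.84%. When the peak had to cover the start site, H3K4me3 was found at 3 members in NSCs (67.0% of all genes), 5 in neurons (52.2%) and 0 in both (51.4%), with the same 5 gains (0.73%) and 3 losses (15.6%). The losses were then Pcdhb1, Pcdhb11 and Pcdhb16. The neuronal peaks of Pcdhb11 and Pcdhb16 began 128 and 82 bp after the start site. Within 5000 bp, H3K27me3 was found at 8 members in NSCs (25.2% of all genes), 4 in neurons (24.6%) and 4 in both (20.2%), with 4 losses (4.94%). These losses were Pcdhb3, Pcdhb5, Pcdhb10 and Pcdhb11, while Pcdhb6 and Pcdhb7 then had H3K27me3 in both cell types. H3K4me3 gains within 5000 bp were 4 (1.45%). With an FDR under 1e-20, H3K4me3 was found at 2 members in NSCs (66.5%), 2 in neurons (40%) and 1 in both (39.8%), with 1 gain (0.186%) and 1 loss (26.6%), and H3K27me3 at 0 members in neurons (9.65%) and 0 in both (7.73%), with 4 losses (5.38%). Cover of the span was then 1.66% and 2.11% for H3K4me3 in NSCs and neurons, and 0% for neuronal H3K27me3. With equal numbers of peaks, H3K4me3 was found at 3 members in NSCs (67.6%) and 1 in both (60.3%), and there were 7 gains (1.38%). By the gene tables it was found at 2 members in NSCs (58.5%) and 1 in both (47.8%), with 1 loss (10.6%), and H3K27me3 at 0 members in neurons (5.09%) and 0 in both (3.31%), with 4 losses (4.43%). Under a reciprocal overlap of 50%, 1 H3K27me3 peak per cell type counted as shared in the span, against 3 NSC peaks and 4 neuronal ones at 1 bp. At an FDR under 1e-20 the neuronal H3K4me3 peaks of Pcdhb3, Pcdhb5, Pcdhb6 and Pcdhb7 no longer counted, with FDRs of 2.9e-05, 7.0e-18, 6.0e-07 and 9.5e-09. The 4 H3K27me3 losses at that limit and by the gene tables include Pcdhb1 and Pcdhb2, whose neuronal peaks miss it. The cause of the other shifts was not tested.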

Other observations

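Past Pcdhb16 the tables name no Pcdhb gene until Pcdhb21, and in the order of the RefSeq table Pcdhb17, Pcdhb18, Pcdhb19 and Pcdhb20 lie between them. In this stretch of 33.832 kb, up to the end of Pcdhb21, NSC H3K4me3 peaks covered 23.1% and neuronal ones 3.55%. NSCs had 4 peaks there, the widest of 4200 bp with 104 over 39 reads, and neurons had 1, that of Pcdhb21. None of these peaks reached an FDR under 1e-20. Over the genome too, H3K4me3 peaks covered more in NSCs, 57.3 Mb against 24.7 Mb in neurons. Past the end of Pcdhb21 NSCs had 3 further peaks within 20 kb, of 55, 50 and 40 reads, and neurons had none listed. H3K27me3 was not called in this stretch in either cell type. Between Pcdhb12 and Pcdhb16, where the RefSeq order places Pcdhb13, Pcdhb14 and Pcdhb15, NSCs had peaks of 31 over 10 and 33 over 12 reads, and neurons had none listed. Upstream of Pcdhb12, both cell types had a peak with the same left bound, of 45 over 12 reads in NSCs and 21 over 6 in neurons, 6040 and 6640 bp from the start site of Pcdhb12, the closest one scored. The neuronal H3K27me3 peak with the highest fold in the cluster, 4.68 with 49 over 11 reads, lay 9895 bp before Pcdhb2, where no NSC domain was listed.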
